A study of Arabidopsis thaliana with 12 samples.

Results

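Class III peroxidases are the plant-specific secretory heme peroxidases, and 60 of their genes were followed here through seedlings with less transcript of 2 histone variants. The 60 loci were chosen from a fixed list of gene identifiers that includes PRX52 (AT5G05340), and all 60 were found among the 23387 genes of the deposited RNA-seq table. The list was drawn up with earlier results of the same libraries known. Which values decided its entries is not stated, and 13 further loci of the family are not on it. Counts and medians over the 60 genes are therefore descriptions, and their direction is not independent evidence.

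The 12 libraries came from whole Arabidopsis thaliana seedlings, 7 days old, that grew at 21 °C in short days and then spent 12 h at 27 °C. The 4 groups, of 3 libraries each, were: Col, the wild type; h3.3kd, named for a knockdown of histone H3.3 and given as h3.3kd-1 in the genotype field; h2a.z, named for loss of histone H2A.Z; and h3.3kd;h2a.z, which carries both and is called the combined genotype here. The labels name no alleles, no construct and no number of seedlings per library, and samples kept at 21 °C were not analysed here, so every difference is one between genotypes in the warmth. Nothing in the labels says that replicates were separate cultures, and the p-values measure only the spread between these samples, which may be technical.

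These enzymes are secreted to the cell wall and use hydrogen peroxide to oxidise phenolic substrates, and they can also produce reactive oxygen themselves. They cross-link wall polymers, polymerise lignin in xylem and fibres, seal the Casparian strip of the root endodermis, loosen walls during root hair growth, and contribute to the oxidative burst at the plasma membrane when a pathogen or a wound is perceived. Many members are expressed mainly in roots, and another set is induced by infection, wounding or other stress. Both H3.3 and H2A.Z are variants placed into chromatin outside replication, and H2A.Z in gene bodies is known for its place at environmentally responsive genes.

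The targeted histone transcripts were lower in the genotypes named for them, and some others were lower too. HTR4, an H3.3 gene, had 449, 417 and 479 TPM in the Col libraries and 65.6, 29.6 and 70.1 TPM in h3.3kd, with 56.2, 47.7 and 60.3 TPM in the combined genotype. HTA9, an H2A.Z gene, had 325, 211 and 228 TPM in Col, 31.3, 34.4 and 30.5 TPM in h2a.z and 91.9, 77.1 and 92.7 TPM in the combined genotype, so it was lower without being absent. HTA9 was higher in the combined genotype than in h2a.z (1.41 ± 0.22 on the log2(TPM + 1) scale, adjusted p = 0.00031 by limma), so the 2 genotypes did not hold it at the same level. Of the 3 H3.3 and 3 H2A.Z genes, 4 were called lower in h3.3kd, 5 in h2a.z and 6 in the combined genotype against Col. The calls in h2a.z include the H3.3 genes HTR5 (478 ± 61.1 TPM in Col and 302 ± 15.4 TPM in h2a.z, mean ± SD, n = 3, adjusted p = 0.014, up to 0.059 under the alternatives) and HTR8 (239.8 ± 50.7 and 168 ± 12.9 TPM, adjusted p = 0.045, up to 0.18), and those in h3.3kd the H2A.Z gene HTA8 (14.8 ± 2.34 TPM in Col and 8.86 ± 2.34 TPM in h3.3kd, adjusted p = 0.04, up to 0.24). Their part in the peroxidase results was not tested. Depth per library is unknown because TPM (transcripts per 1000000, a level scaled for gene length and library total) keeps no read number, and 19590 to 22019 genes were above 0 in a library. In RNA from whole seedlings, fewer cells of a type and less RNA per cell cannot be told apart.

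The regions just upstream of 4 genes are printed because they show the short motifs that were searched in the whole family, and a coding stretch of 1 neighbouring pair is printed because it shows how closely the copies resemble each other. The table gives no coordinates, so positions and letters were read from the reference assembly TAIR10.1, 5′ to 3′ on the strand of the gene, 250 bases up to the annotated gene start. Capitals mark the W-box core TTGAC, the binding motif of WRKY factors, in the windows of PRX52 on the minus strand (chr5:1580876-1581125), PRX62 on the minus strand (chr5:15849142-15849391) and PRX34 on the plus strand (chr3:18207401-18207650). In the window of PRX7, on the plus strand (chr1:10991228-10991477), capitals mark the core of the root hair element.
PRX52 upstream: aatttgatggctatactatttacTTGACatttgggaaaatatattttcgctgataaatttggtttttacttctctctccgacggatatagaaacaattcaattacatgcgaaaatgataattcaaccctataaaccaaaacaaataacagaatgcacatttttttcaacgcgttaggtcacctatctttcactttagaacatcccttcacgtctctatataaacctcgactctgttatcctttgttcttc
PRX62 upstream: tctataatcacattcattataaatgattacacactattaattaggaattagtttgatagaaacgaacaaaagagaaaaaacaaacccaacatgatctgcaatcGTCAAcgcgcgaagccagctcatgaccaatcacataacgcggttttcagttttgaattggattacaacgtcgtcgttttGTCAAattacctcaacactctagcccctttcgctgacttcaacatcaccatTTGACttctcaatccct
PRX34 upstream: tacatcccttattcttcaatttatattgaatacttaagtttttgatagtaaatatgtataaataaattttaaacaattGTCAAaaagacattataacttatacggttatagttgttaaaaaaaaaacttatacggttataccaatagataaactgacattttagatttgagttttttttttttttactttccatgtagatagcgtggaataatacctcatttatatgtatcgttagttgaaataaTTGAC
PRX7 upstream: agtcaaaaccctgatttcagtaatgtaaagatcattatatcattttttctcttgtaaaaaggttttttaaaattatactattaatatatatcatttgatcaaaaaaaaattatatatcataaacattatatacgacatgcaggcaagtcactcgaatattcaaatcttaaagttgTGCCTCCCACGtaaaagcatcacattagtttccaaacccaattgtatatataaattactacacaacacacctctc
The W-box core, read on both strands, was present in 8 of the 14 windows of the stress-inducible peroxidases and in 26 of all 60, against 45.2% of the 23233 genes of the table with a nuclear position. The core of the root hair element, TG and CACG with 4 or 5 bases between them on either strand, is the motif to which RHD6-like factors bind. It was present in 3 of the 7 windows of the root hair peroxidases and in 3 of the 10 of the other root peroxidases, against 9.34% of all genes. The G-box CACGTG was in 0 of the 60 windows and in 7.13% of all genes. A match is a description of these letters, and no overlap between the motifs was counted.

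Several members sit in tandem with a close copy. PRX33 and PRX34, 4385 bases apart on chromosome 3, share 90.42% of their aligned coding bases, and in the 60-base stretch printed here, capitals mark the 10 bases that differ between coding bases 24 to 83 of PRX33 and 21 to 80 of PRX34.
PRX33 coding: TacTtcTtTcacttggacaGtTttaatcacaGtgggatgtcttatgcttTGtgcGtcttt
PRX34 coding: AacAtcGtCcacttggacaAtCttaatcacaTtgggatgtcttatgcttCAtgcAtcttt
Of 1770 pairs among the 60 genes, 10 reached 80% identity, and the median pair had 52.9%. PRX37 with PRX38 had 93.76%, PRX50 with PRX51 had 92.42%, PRX14 with PRX15 had 91.74% and PRX22 with PRX23 had 90.57%. The coding sequences of PRX1 and PRX2 are identical throughout, so reads inside them cannot be assigned to either gene. The sources used here do not say how reads matching several copies were counted, and the levels of these pairs are uncertain to that extent.

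Summed over the 60 genes, the peroxidases took 3312 ± 431 TPM in Col, 4027 ± 147 TPM in h3.3kd, 4455 ± 404 TPM in h2a.z and 3488 ± 186 TPM in the combined genotype (mean ± SD, n = 3 each). One gene, PRX42, made up a large share of every sum. Without PRX42 the sums were 2036 ± 272 TPM in Col, 1427 ± 256 TPM in h3.3kd, 3202 ± 233 TPM in h2a.z and 1449.9 ± 91.9 TPM in the combined genotype, so that all 3 h2a.z libraries lay above all others and both H3.3 knockdown genotypes lay below Col. By their mean over all libraries, 6 members were above 100 TPM (PRX42, PRX12, PRX69, PRX71, PRX66 and PRX21), 29 lay between 10 and 100 TPM and 25 were under 10 TPM. Of the 60, 55 reached 1 TPM in at least 3 libraries and were tested, and 40 of these had their highest mean in h2a.z, among them 6 that passed this filter only with the help of the h2a.z libraries. The share of all genes with their highest mean in h2a.z was not counted, so the 40 has no baseline and marks no trait of the family.

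**Figure D1:**
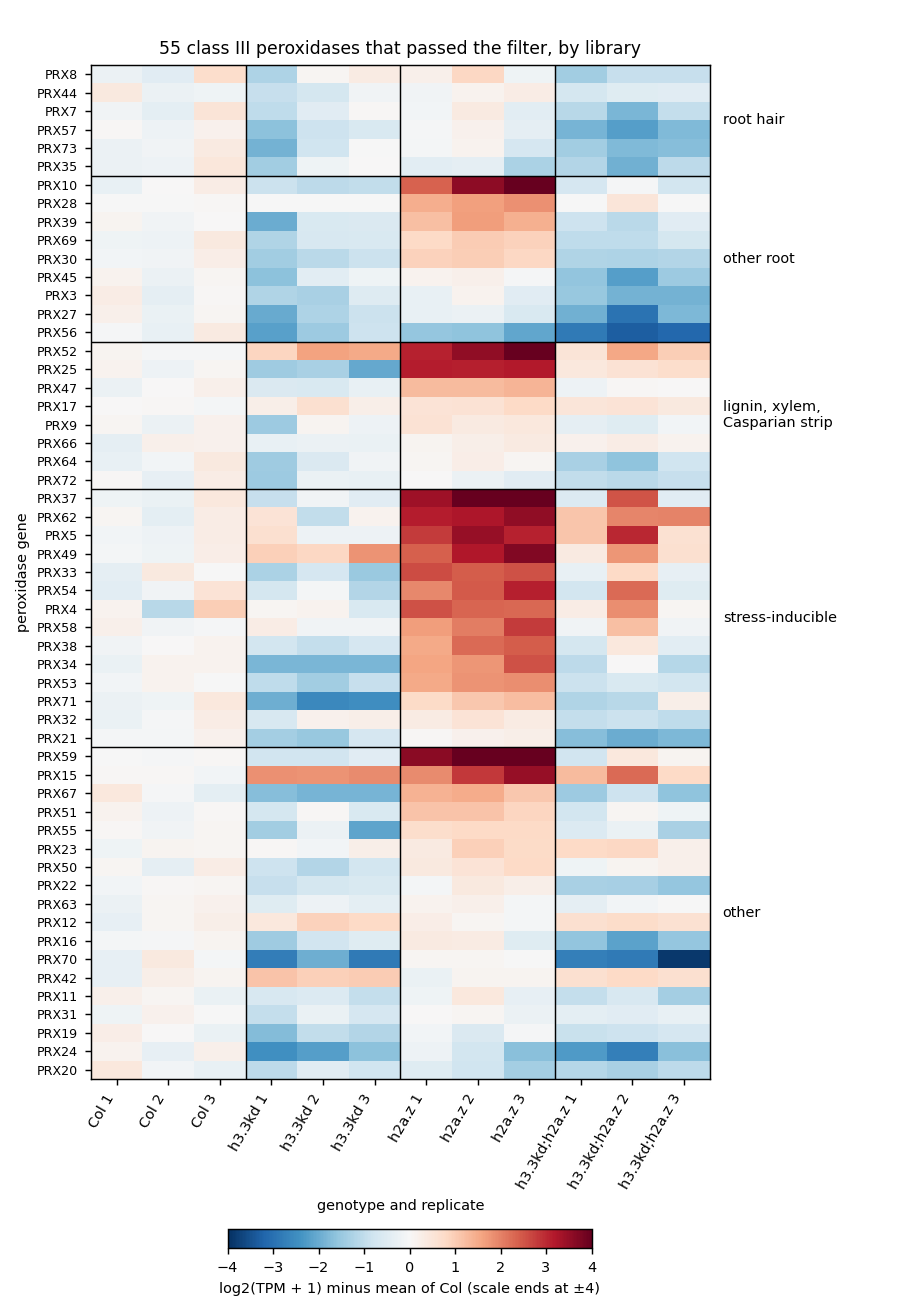
Level of each tested class III peroxidase (rows, grouped by role) in each of the 12 libraries (columns), as the difference in log2(TPM + 1) from the gene's mean in Col, on a colour scale that ends at 4 in either direction. The 3 h2a.z columns are the high ones for most stress-inducible members, and the columns of h3.3kd and of the combined genotype are low for most root members.

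Each gene's log2(TPM + 1) was tested with limma in 1 model of the 4 genotype means over 19937 genes, with an adjusted p under 0.05 as the threshold for a call (Benjamini-Hochberg over all genes tested). Fold changes are differences on the log2(TPM + 1) scale with their standard error, and they understate the change of genes with low levels. In h2a.z against Col, 27 of the 55 peroxidases were called higher, against 10.5% of all genes, and 2 were called lower, against 4.56%. In h3.3kd against Col the balance was the other way, with 5 called higher (5.41% of all genes) and 24 called lower (11.9%). In the combined genotype against Col, 7 were called higher (6.17%) and 23 lower (12.6%). The median difference of the 55 was 0.57 in h2a.z, -0.71 in h3.3kd and -0.70 in the combined genotype, where the medians of all genes were 0.05, -0.12 and -0.10. These 3 comparisons share the Col libraries.

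Rescaling each library by its median ratio moved the all-gene median of h3.3kd against Col to -0.03, and 6 peroxidases were then called higher and 22 lower. With only h3.3kd and Col in the fit, 3 were called higher and 15 lower. Shares of all genes are given here for the main fit only. A smaller count under another fit may therefore go with fewer calls over all genes, which was not tested. In all, 6 members (PRX5, PRX10, PRX28, PRX38, PRX58 and PRX59) had fewer than 3 libraries at 1 TPM outside h2a.z, so they passed the filter through the genotype in which they were high, and PRX28 reached 1 TPM in h2a.z only. Their calls involving h2a.z partly restate the filter. Without these 6, 21 of 49 were called higher and 2 lower in h2a.z against Col, with a median difference of 0.29.

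**Figure D2:**
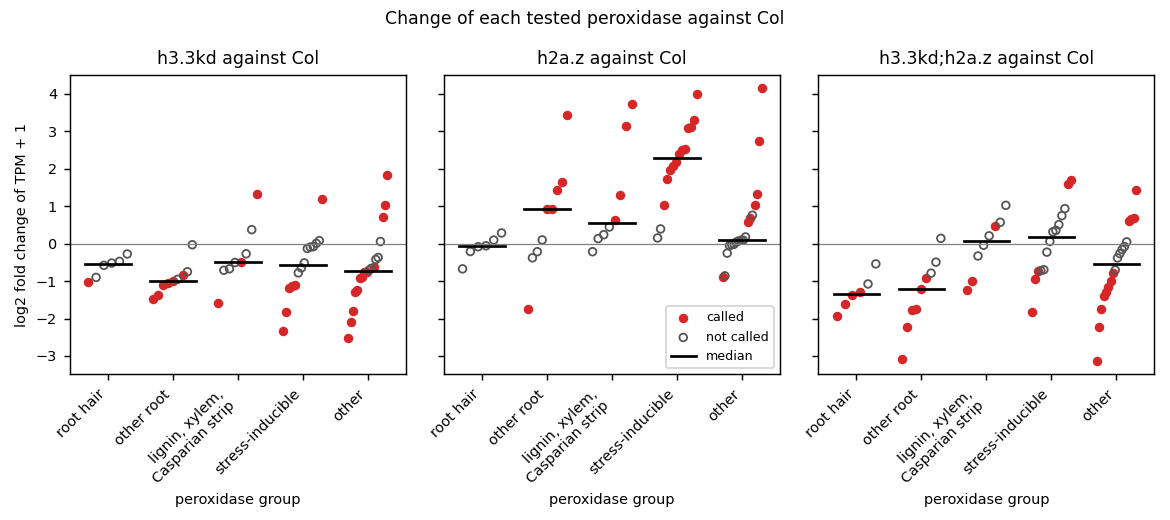
Difference from Col in log2(TPM + 1) for each tested peroxidase in the 3 mutant genotypes, by role group, with filled points for genes called at an adjusted p under 0.05, thick lines for the group medians and a thin line at 0. The stress-inducible members lie above 0 in h2a.z (14 of 14, of which 3 passed the filter through h2a.z), whereas the root hair members lie below 0 in h3.3kd and in the combined genotype (6 of 6 each). Of these 6, 1 was called lower in h3.3kd and 4 in the combined genotype. The medians of all genes were 0.05 in h2a.z, -0.12 in h3.3kd and -0.10 in the combined genotype. The share of all genes on each side of 0 was not counted, so the counts by side have no baseline.

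Of the 14 stress-inducible peroxidases, 12 were called higher in h2a.z against Col (10.5% of all genes) and 0 lower, with a median difference of 2.28. Without PRX5, PRX38 and PRX58, which passed the filter through h2a.z, 9 of 11 were called higher. In h3.3kd against Col, 1 was called higher (5.41%) and 5 lower (11.9%), with a median of -0.58, and in the combined genotype 2 were called higher (6.17%) and 3 lower (12.6%), with a median of 0.19. The summed level of the 14 was 503 ± 94.9 TPM in Col, 249.9 ± 46 TPM in h3.3kd, 1123 ± 191 TPM in h2a.z and 307 ± 68.9 TPM in the combined genotype. These sums follow the abundant members, whereas the medians weigh each member alike. Most of the lower sum in h3.3kd came from PRX21 (175 TPM in Col, 78.9 TPM in h3.3kd) and PRX71 (154 and 29.7 TPM). The lower sums therefore do not describe the group as a whole.

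PRX62 (AT5G39580), a stress-responsive peroxidase that also takes part in root hair growth in the cold, and whose upstream window holds 3 W-box cores, had 9.87, 6.89 and 11.7 TPM in the Col libraries, 14, 4.24 and 10.5 TPM in h3.3kd, 90.8, 95.4 and 120.4 TPM in h2a.z and 21.3, 39.3 and 39.9 TPM in the combined genotype. All h2a.z libraries were above all others, and the combined libraries lay between them and the rest, while Col and h3.3kd overlapped. The difference from Col was 3.31 ± 0.33 in h2a.z (adjusted p = 1.1e-05) and 1.69 ± 0.33 in the combined genotype (adjusted p = 0.0028), so PRX62 rose in both.

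PRX34 (AT3G49120) and PRX33 (AT3G49110) encode the apoplastic peroxidases best known for the oxidative burst against pathogens. PRX34 had 32, 42.9 and 42.5 TPM in Col, 10.2, 10.1 and 10.3 TPM in h3.3kd, 118, 133 and 232 TPM in h2a.z and 18.3, 39.5 and 17 TPM in the combined genotype. The h3.3kd libraries were the lowest and the h2a.z libraries the highest, with no overlap of either with Col. PRX34 fell in h3.3kd (-1.83 ± 0.29, adjusted p = 0.00081) and rose in h2a.z (1.96 ± 0.29, adjusted p = 0.00027). Its neighbour PRX33 was lower in level but moved in the same directions, with 2.17, 4.42 and 3.05 TPM in Col, 0.724, 1.6 and 0.482 TPM in h3.3kd, 23.9, 21 and 22.8 TPM in h2a.z and 2.32, 6.2 and 2.3 TPM in the combined genotype. In h2a.z against h3.3kd the difference was 3.65 ± 0.31 for PRX33 (adjusted p = 1.1e-06) and 3.79 ± 0.29 for PRX34 (adjusted p = 3.4e-07).

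PRX37 (AT4G08770) had 3.15, 2.87 and 5.23 TPM in Col, 1.43, 3.21 and 2.37 TPM in h3.3kd, 47.7, 84.1 and 95 TPM in h2a.z and 2.17, 25.7 and 2.4 TPM in the combined genotype. The h2a.z libraries stood above all others, and replicate 2 of the combined genotype stood apart from its own group. PRX37 rose in h2a.z (3.99 ± 0.60, adjusted p = 0.00036). Its near-copy PRX38, which passed the filter through h2a.z, was also highest there, with 7.45 ± 2.51 TPM against 0.948 ± 0.204 TPM in Col (mean ± SD, n = 3). Replicate 2 of the combined genotype was the highest library of its genotype for 11 of the 14 stress-inducible members, and without it the combined genotype against Col had 3 peroxidases called higher and 19 lower among the 55.

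PRX71 (AT5G64120), a peroxidase with a known part in stem lignin and in the response to cell wall damage, is the most abundant of the stress-inducible members. It had 127, 132 and 203 TPM in Col, 38.4, 24.3 and 26.3 TPM in h3.3kd, 257, 317 and 356 TPM in h2a.z and 64.4, 69.2 and 176 TPM in the combined genotype. All h3.3kd libraries were below all others, and PRX71 fell there (-2.33 ± 0.31, adjusted p = 0.00026). Its call in h2a.z against Col (1.03 ± 0.31, adjusted p = 0.039) ended without Col replicate 1 (0.13), Col replicate 2 (0.11) or any 1 of the h2a.z libraries (0.056, 0.11 and 0.14), and also with a pseudocount of 0.1 (0.051), no filter (0.059), median-ratio rescaling (0.073) or quantile normalization (0.052).

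PRX21 (AT2G37130) had 163, 163 and 198 TPM in Col, 66.7, 59.9 and 109.9 TPM in h3.3kd, 178, 197 and 206 TPM in h2a.z and 52.2, 43.3 and 49.1 TPM in the combined genotype. Col and h2a.z overlapped, and both stood above the 2 H3.3 knockdown genotypes, in which PRX21 fell (-1.18 ± 0.18 in h3.3kd, adjusted p = 0.00082, and -1.84 ± 0.18 in the combined genotype, adjusted p = 1.4e-05). PRX49 (AT4G36430) was high in h2a.z at 29.3, 51.9 and 73.1 TPM and low in Col at 4.45, 4.04 and 5.86 TPM, with 10, 9.19 and 18.8 TPM in h3.3kd and 6.42, 18.6 and 8.03 TPM in the combined genotype. It rose in h2a.z against Col (3.10 ± 0.37, adjusted p = 5.4e-05). Its call in h3.3kd against Col (1.19 ± 0.37, adjusted p = 0.042) ended without any 1 of the Col libraries (0.11, 0.1 and 0.056), without h3.3kd replicate 3 (0.15), h2a.z replicate 2 (0.057) or combined replicate 3 (0.053), and also with no filter (0.065) or with only these 2 genotypes fitted (0.061).

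**Figure D3:**
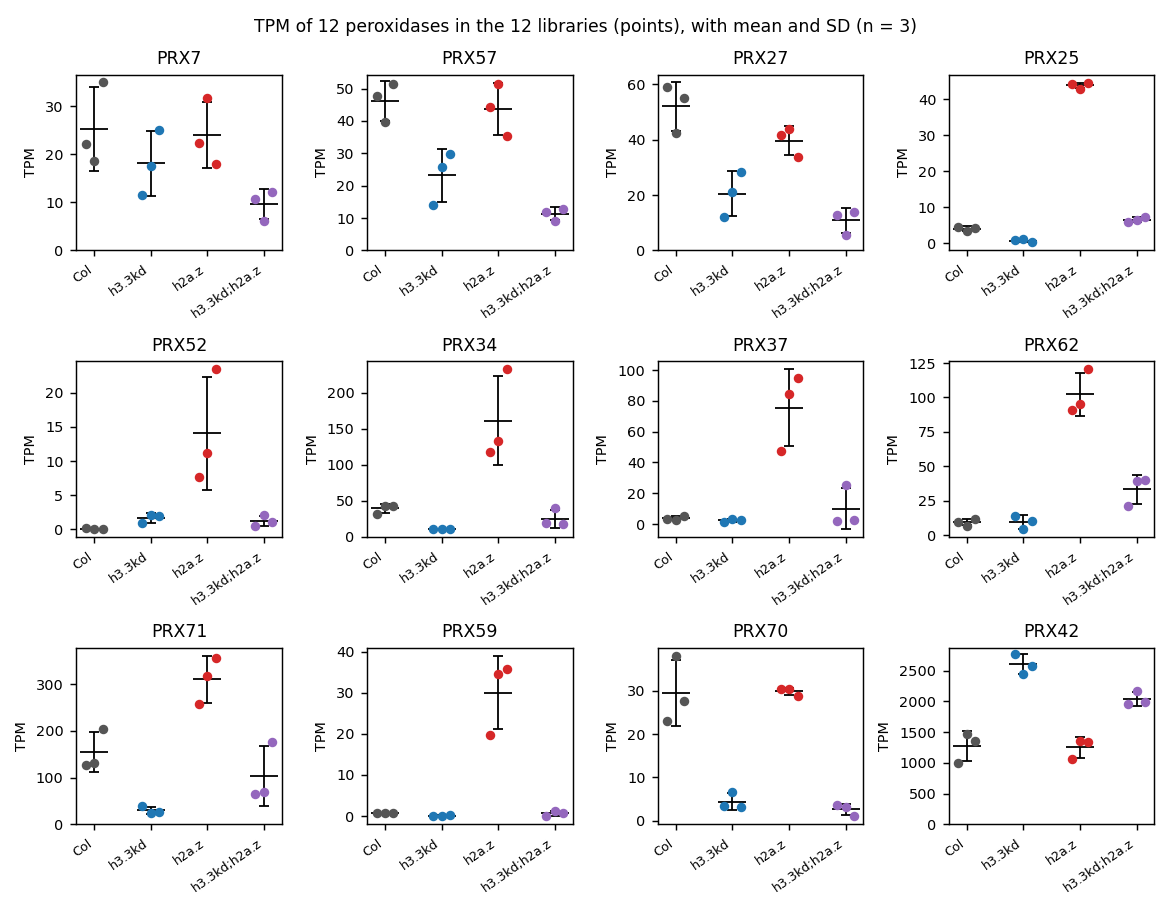
TPM of named peroxidases in each library (points) with the mean and SD of each genotype (lines), 3 libraries per genotype, each panel with its own linear axis. PRX52, PRX62 and PRX25 are highest in the 3 h2a.z libraries, and PRX42 is highest in the libraries of h3.3kd and of the combined genotype.

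PRX52, which polymerises lignin in the fibres and xylem of the Arabidopsis stem, was listed at or near 0 in Col, with 0.107, 0 and 0 TPM. It had 0.865, 2.13 and 1.98 TPM in h3.3kd, 7.65, 11.1 and 23.5 TPM in h2a.z and 0.485, 2.04 and 1.06 TPM in the combined genotype. The h2a.z libraries were above all others, the libraries of h3.3kd and of the combined genotype overlapped, and both of these groups were above Col. PRX52 rose in h2a.z against Col (3.72 ± 0.36, adjusted p = 7.4e-06) and was lower in the combined genotype than in h2a.z (-2.70 ± 0.36, adjusted p = 9.6e-05). The step from h3.3kd to the combined genotype was -0.30 ± 0.36 (adjusted p = 0.77). Its call in h3.3kd against Col (1.32 ± 0.36, adjusted p = 0.022) ended without Col replicate 2 (0.052), Col replicate 3 (0.054), h3.3kd replicate 2 (0.052) or h3.3kd replicate 3 (0.067). In the combined genotype against Col the difference was 1.02 ± 0.36 (adjusted p = 0.062) and passed the threshold with a pseudocount of 0.1, where it was 3.15 (adjusted p = 0.0024), with quantile normalization (0.038), with the replicate block (0.039) and with only these 2 genotypes fitted (0.035).

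Among the 8 peroxidases tied to lignin, xylem or the Casparian strip, 4 were called higher in h2a.z against Col (10.5% of all genes) and 0 lower (4.56%), with a median of 0.54. In h3.3kd 1 was called higher and 2 lower (5.41% and 11.9% of all genes), and in the combined genotype 1 higher and 2 lower (6.17% and 12.6%). PRX25 (AT2G41480), which affects lignin in the stem, had 4.59, 3.37 and 4.34 TPM in Col, 0.892, 1.07 and 0.235 TPM in h3.3kd, 44.2, 42.9 and 44.3 TPM in h2a.z and 5.85, 6.57 and 7.23 TPM in the combined genotype. No genotype overlapped another, with h2a.z highest and h3.3kd lowest. PRX25 rose in h2a.z (3.14 ± 0.21, adjusted p = 2.2e-07), fell in h3.3kd (-1.58 ± 0.21, adjusted p = 0.00024) and was higher in the combined genotype than in h3.3kd (2.16 ± 0.21, adjusted p = 2.6e-05).

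PRX47 (AT4G33420) and PRX66 (AT5G51890) are expressed where tracheary elements form. PRX47 had 42.3, 51 and 57.8 TPM in Col, 33.1, 32.7 and 40.2 TPM in h3.3kd, 123, 122 and 130.1 TPM in h2a.z and 43.7, 51.8 and 50.3 TPM in the combined genotype, and it rose in h2a.z (1.30 ± 0.14, adjusted p = 1.8e-05). PRX66 had 105, 157 and 152 TPM in Col, 109.8, 115 and 112 TPM in h3.3kd, 147, 162 and 173 TPM in h2a.z and 153, 168 and 151 TPM in the combined genotype. The Col libraries of PRX66 overlapped those of each other genotype, and PRX66 was called in 0 of the 3 comparisons with Col (limma). PRX64, a peroxidase of the Casparian strip, had 16.8 ± 4.58 TPM in Col and 6.6 ± 2.15 TPM in the combined genotype (mean ± SD, n = 3), and PRX72, which acts in lignin formation, had 31.9 ± 7.05 and 15.3 ± 0.751 TPM. These were the 2 members of the group called lower in the combined genotype.

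In the 3 comparisons with Col, the root hair peroxidases were called in the lower direction where they were called at all. Of the 7, 6 were tested. In h2a.z against Col 0 were called in either direction, in h3.3kd 1 was called lower (11.9% of all genes), and in the combined genotype 4 were called lower (12.6%) and 0 higher. Their medians were -0.07 in h2a.z, -0.55 in h3.3kd and -1.34 in the combined genotype. No test compared the 2 groups of genes directly.

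PRX57 (AT5G17820), expressed in root hairs, had 47.6, 39.5 and 51.3 TPM in Col, 14.1, 25.7 and 29.9 TPM in h3.3kd, 44.4, 51.4 and 35.5 TPM in h2a.z and 12, 9.16 and 12.9 TPM in the combined genotype. Col and h2a.z overlapped, the h3.3kd libraries were lower, and the combined libraries were the lowest. PRX57 fell in the combined genotype (-1.94 ± 0.24, adjusted p = 7.2e-05). PRX73 (AT5G67400), which promotes root hair growth, had 26.4, 28.4 and 39.9 TPM in Col, 7.64, 17.5 and 30.7 TPM in h3.3kd, 29.1, 34.4 and 18.9 TPM in h2a.z and 11.3, 8.44 and 8.78 TPM in the combined genotype. Its h3.3kd libraries spread from below the h2a.z range to within the Col range, and PRX73 fell in the combined genotype (-1.62 ± 0.36, adjusted p = 0.0059). PRX7 (AT1G30870), whose upstream window holds the root hair element core, had 22.2, 18.5 and 35.1 TPM in Col, 11.6, 17.6 and 25 TPM in h3.3kd, 22.4, 31.6 and 18 TPM in h2a.z and 10.8, 6.14 and 12.2 TPM in the combined genotype, whose libraries were below all others except 1 of h3.3kd.

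Of the 10 other root peroxidases, 9 were tested. In h2a.z against Col 5 were called higher (10.5% of all genes) and 1 lower (4.56%), in h3.3kd 6 lower (11.9%) and 0 higher, and in the combined genotype 6 lower (12.6%) and 0 higher. Against h2a.z, all 9 were called lower in the combined genotype (19.3%), or 7 of 7 without PRX10 and PRX28, which passed the filter through h2a.z. PRX69 (AT5G64100), a wall peroxidase of roots that acts with PRX62 in root hairs in the cold, had 177, 172 and 259 TPM in Col, 85.2, 126 and 129.6 TPM in h3.3kd, 347, 405 and 379 TPM in h2a.z and 97.6, 98.6 and 121 TPM in the combined genotype. The h2a.z libraries were the highest and both knockdown genotypes lay below Col. PRX69 rose in h2a.z (0.92 ± 0.18, adjusted p = 0.0031) and fell in h3.3kd (-0.83 ± 0.18, adjusted p = 0.0074), and the second call ended when only these 2 genotypes were fitted (0.072).

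PRX10 (AT1G49570) had 0.67, 1.06 and 1.54 TPM in Col, 0.146, 0 and 0.0514 TPM in h3.3kd, 9.52, 23.6 and 41.5 TPM in h2a.z and 0.291, 0.978 and 0.226 TPM in the combined genotype. Its h2a.z libraries differed among themselves but were all above every other library, and PRX10 rose there (3.43 ± 0.39, adjusted p = 3.2e-05). PRX10 passed the filter through h2a.z, so this call partly restates the filter. PRX56 (AT5G15180) went the other way, with 13.7, 11.1 and 18.2 TPM in Col, 2.37, 4.5 and 7.43 TPM in h3.3kd, 4.16, 3.9 and 2.56 TPM in h2a.z and 1.11, 0.546 and 0.716 TPM in the combined genotype. Col was above all 3 mutant genotypes without overlap, and PRX56 fell in h3.3kd (-1.48 ± 0.30, adjusted p = 0.0047), in h2a.z (-1.75 ± 0.30, adjusted p = 0.0011) and furthest in the combined genotype (-3.09 ± 0.30, adjusted p = 1.1e-05). PRX27 (AT3G01190) had 58.9, 42.2 and 54.8 TPM in Col, 11.9, 21.2 and 28.2 TPM in h3.3kd, 41.5, 43.7 and 33.6 TPM in h2a.z and 12.9, 5.74 and 14 TPM in the combined genotype, and it fell in h3.3kd (-1.37 ± 0.31, adjusted p = 0.008) and in the combined genotype (-2.23 ± 0.31, adjusted p = 0.00019).

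Markers of the root moved in the same libraries. Of 12 tested root markers, among them the transporters IRT1 and TIP2;3 and the epidermal regulator WER, 7 were called lower in h3.3kd and 9 in the combined genotype, and 2 were called higher and 1 lower in h2a.z. Of all genes, 11.9% and 12.6% were called lower in the first 2, and 10.5% higher and 4.56% lower in h2a.z. SCR did not fall in the knockdown genotypes, with 38.0 ± 6.66 TPM in Col, 46.6 ± 18.5 TPM in h3.3kd and 57.7 ± 4.05 TPM in the combined genotype (mean ± SD, n = 3). SHR had means of 21.4, 21.0 and 21.0 TPM in the same order. TIP2;3 was low in h2a.z too, at 27.2 ± 2.65 TPM against 85.5 ± 11.3 TPM in Col. The 13 root markers summed to 2069.8 to 2539.5 TPM in Col, 1437 to 1849 TPM in h3.3kd, 1632 to 2203 TPM in h2a.z and 1123 to 1344 TPM in the combined genotype, and NRT2.1 was near 0 in all of them. PYK10, a beta-glucosidase of root ER bodies, carried most of each sum. Without it the other 12 summed to 261 to 283 TPM in Col, 105 to 197 TPM in h3.3kd, 289 to 332 TPM in h2a.z and 143 to 154 TPM in the combined genotype. In this sum h2a.z lay above Col and both knockdown genotypes below it, whereas with PYK10 the h2a.z and Col ranges overlapped. The largest rises in h2a.z were those of IRT1 (28.4 ± 2.64 TPM in Col, 64.5 ± 8.65 TPM in h2a.z) and PHT1;1 (40.6 ± 5.35 and 74.9 ± 11.8 TPM). The higher sum in h2a.z therefore does not describe the root markers as a whole. The 9 root hair markers summed to 96.5 to 174 TPM in Col, 30.1 to 96.8 TPM in h3.3kd, 79.5 to 126 TPM in h2a.z and 33.3 to 53.3 TPM in the combined genotype, with RSL2 listed at 0 in all 3 combined libraries. Among them, EXPA7, a root hair expansin, fell in the combined genotype (-1.81 ± 0.28, adjusted p = 0.00053), and TIP2;3 fell furthest of the root markers there (-3.93 ± 0.22, adjusted p = 5.9e-08). The 3 leaf markers summed to 23944 to 33831 TPM in Col, 27886 to 38693 TPM in h3.3kd, 21387 to 24399 TPM in h2a.z and 36556 to 37422 TPM in the combined genotype, with 1, CAB3, called higher in h3.3kd (5.41% of all genes) and in the combined genotype (6.17%), the first call ending with median-ratio rescaling. The 2 seed markers summed to 0.401 to 1.13 TPM in Col, 18.5 to 40.4 TPM in h3.3kd, 29 to 108 TPM in h2a.z and 106 to 238 TPM in the combined genotype, and both were called higher in all 3. That pattern of calls held for 0.858% of all genes. CRA1 carried most of the sums in the mutant genotypes, where OLEO1 had means of 2.76, 2.36 and 3.57 TPM in the same order. The part of these markers in the peroxidase results was not tested. Replicate 1 of h3.3kd was the lowest library of its genotype for 6 of 6 root hair and 7 of 9 other root peroxidases, and without it 17 of the 55 were called lower in h3.3kd against Col.

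The remaining 21 members, whose roles are less settled, include 3 of the 5 called higher in h3.3kd against Col (PRX42 (AT4G21960), PRX12 (AT1G71695) and PRX15 (AT2G18150)), the other two being PRX49 and PRX52. PRX42, the most abundant peroxidase, had 1004, 1474 and 1352 TPM in Col, 2775, 2452 and 2575 TPM in h3.3kd, 1056, 1359 and 1345 TPM in h2a.z and 1953, 2174 and 1986 TPM in the combined genotype. Col and h2a.z overlapped, and both knockdown genotypes lay above them. PRX42 rose in h3.3kd (1.04 ± 0.16, adjusted p = 0.00068) and in the combined genotype (0.69 ± 0.16, adjusted p = 0.0074). PRX12 had 181, 240.0 and 269 TPM in Col, 304, 429 and 396 TPM in h3.3kd, 272, 241 and 216 TPM in h2a.z and 354, 375 and 344 TPM in the combined genotype, and it rose in the last (0.65 ± 0.16, adjusted p = 0.011). Its call in h3.3kd against Col (0.71 ± 0.16, adjusted p = 0.0085) ended when only these 2 genotypes were fitted (0.08). PRX15 had 0.965, 0.957 and 0.769 TPM in Col, 5.73, 5.62 and 5.96 TPM in h3.3kd, 6.01, 12.4 and 20 TPM in h2a.z and 3.56, 8.11 and 2.26 TPM in the combined genotype, and all libraries of the 3 mutant genotypes were above Col.

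PRX70 (AT5G64110), PRX71 and PRX69 are neighbours on chromosome 5, with 1826 bases between PRX69 and PRX70 and 3189 between PRX70 and PRX71. PRX70 had 23, 37.9 and 27.6 TPM in Col, 3.38, 6.74 and 3.23 TPM in h3.3kd, 30.4, 30.3 and 28.8 TPM in h2a.z and 3.54, 3.26 and 1.07 TPM in the combined genotype. Col and h2a.z overlapped, both knockdown genotypes were far below, and PRX70 fell in h3.3kd (-2.51 ± 0.30, adjusted p = 0.00011) and in the combined genotype (-3.13 ± 0.30, adjusted p = 9.5e-06). So within 1 cluster PRX70 was not called in h2a.z (0.04 ± 0.30, adjusted p = 0.95), whereas PRX69 was called higher, and the difference between the genes was not tested. PRX24 (AT2G39040) had 6.3, 4.25 and 6.59 TPM in Col, 0.204, 0.427 and 1.13 TPM in h3.3kd, 4.8, 3.02 and 1.08 TPM in h2a.z and 0.365, 0 and 1.06 TPM in the combined genotype, and it fell in both knockdown genotypes (-2.10 ± 0.37 and -2.23 ± 0.37, adjusted p = 0.0018 and 0.00079). PRX59 (AT5G19890) had 0.684, 0.652 and 0.739 TPM in Col, 0, 0 and 0.227 TPM in h3.3kd, 19.7, 34.5 and 35.8 TPM in h2a.z and 0, 1.27 and 0.813 TPM in the combined genotype. It lies 1598 bases from PRX58, and both were highest in h2a.z, PRX58 at 4.22 ± 2.19 TPM. PRX59 rose in h2a.z with the largest difference of the 55 (4.15 ± 0.30, adjusted p = 4.5e-07). Both PRX59 and PRX58 passed the filter through h2a.z, so this call and their rank there partly restate the filter.

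PRX20 (AT2G35380) and PRX17 (AT2G22420) changed by less. PRX20 had 23.5, 16.2 and 13.8 TPM in Col, 7.9, 12.4 and 9.61 TPM in h3.3kd, 12.3, 9.49 and 6.21 TPM in h2a.z and 7.31, 6.42 and 7.89 TPM in the combined genotype, with Col above the 3 mutant genotypes, and it fell in the combined genotype (-1.17 ± 0.25, adjusted p = 0.0046). Its call in h2a.z (-0.88 ± 0.25, adjusted p = 0.027) ended without Col replicate 1 (0.11) or 2 (0.051) or h2a.z replicate 2 (0.067) or 3 (0.14), or with only these 2 genotypes fitted (0.052). PRX17, a peroxidase of lignified tissues, had 28, 28.5 and 26.3 TPM in Col, 32.5, 43.6 and 33 TPM in h3.3kd, 41.2, 41.3 and 48.2 TPM in h2a.z and 38.9, 40.5 and 36.7 TPM in the combined genotype, with Col below all others. It rose in h2a.z (0.64 ± 0.14, adjusted p = 0.0056). Its call in the combined genotype (0.47 ± 0.14, adjusted p = 0.029) ended without Col replicate 1 (0.055) or 3 (0.082) or any 1 of the combined libraries (0.085, 0.11 and 0.061).

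Tandem copies did not always share a level or a call. PRX22 (AT2G38380) and PRX23 (AT2G38390) stand 897 bases apart, yet PRX22 fell in h3.3kd and in the combined genotype (-0.75 ± 0.15 and -1.39 ± 0.15, adjusted p = 0.0035 and 1.9e-05), while PRX23 had 17.2, 21.1 and 20.8 TPM in Col, 20.4, 18 and 23.2 TPM in h3.3kd, 25.5, 39 and 34.3 TPM in h2a.z and 34.5, 35.3 and 22.5 TPM in the combined genotype. PRX22 had 78.1, 88.6 and 89.6 TPM in Col, 44.4, 51.7 and 55.9 TPM in h3.3kd, 80.3, 111 and 101 TPM in h2a.z and 34, 33.5 and 28.5 TPM in the combined genotype, with Col and h2a.z above both knockdown genotypes. PRX14 was listed at 0 in 10 of 12 libraries, and PRX15, its copy 3155 bases away, was detected in all 12. Across the 3 comparisons with Col, 9 of the 55 members were called lower in both knockdown genotypes and not called in h2a.z (5.53% of all genes), 9 were called higher in h2a.z and in no other (6.05%), 5 of them among the 6 that passed the filter through h2a.z, and 7 were called lower in h3.3kd, higher in h2a.z and not in the combined genotype (0.953%). A missing call does not show that a level was equal. In all, 5 tested members (PRX8, PRX9, PRX44, PRX63 and PRX66) were called in none of the 3, as were 65.9% of all genes.

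The combined genotype was also compared with h2a.z, which sets the H3.3 knockdown against an h2a.z background, although HTA9 differed between the 2 as given above. There 43 of the 55 peroxidases were called lower, against 19.3% of all genes, and 2 higher, against 5.34%, with a median of -1.54 where that of all genes was -0.15. All 14 stress-inducible members were among the 43. Without the 6 members that passed the filter through h2a.z, 37 of 49 were called lower, with a median of -1.41. PRX59 fell by most (-4.23 ± 0.30, adjusted p = 4.7e-07), followed by PRX10 (-3.93 ± 0.39, adjusted p = 8.7e-06) and PRX37 (-3.48 ± 0.60, adjusted p = 0.00076). Of these, PRX59 and PRX10 are among the 6 that passed the filter through h2a.z. The 2 that rose were PRX42 (0.71 ± 0.16, adjusted p = 0.0046) and PRX12 (0.56 ± 0.16, adjusted p = 0.019), and the call of PRX12 ended without h2a.z replicate 2 or 3 (0.059 and 0.085) or combined replicate 1 or 2 (0.056 and 0.072). In h2a.z against h3.3kd, 42 were called higher (24.7% of all genes) and 2 lower (9.40%), which were again PRX42 and PRX12. Without the same 6 members, 36 of 49 were called higher.

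Fewer peroxidases were called between the 2 knockdown genotypes. In the combined genotype against h3.3kd, 6 were called higher (2.43% of all genes) and 4 lower (1.83%), and the median was 0.10, or -0.09 without the 6 members that passed the filter through h2a.z. The higher ones were PRX25, PRX50 (AT4G37520), PRX62, PRX71, PRX33 and PRX34, and the 4 lower ones were PRX22, PRX32, PRX56 and PRX57. PRX50, a copy of PRX51, had 42.8, 33.7 and 46 TPM in h3.3kd and 68.5, 82.7 and 89.7 TPM in the combined genotype (0.96 ± 0.18, adjusted p = 0.0072). With only these 2 genotypes in the fit, 2 were called higher and 0 lower (adjusted p 0.084 for PRX62 and 0.085 for PRX71). The call of PRX34 also ended with no filter (0.068), median-ratio rescaling (0.052) and quantile normalization (0.058), and that of PRX57 with no filter (0.064). The calls of PRX34, PRX57, PRX32 and PRX22 ended without h3.3kd replicate 3 (0.1, 0.17, 0.12 and 0.092), without combined replicate 1 (0.054, 0.095, 0.085 and 0.053) and without combined replicate 2 (0.19, 0.2, 0.072 and 0.061). Without h3.3kd replicate 1, 9 were called lower, and without h3.3kd replicate 3 or any 1 of the combined libraries, 1 was.

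The interaction asks whether the difference of the combined genotype from h2a.z differs from that of h3.3kd from Col. HTA9 itself was called for it (1.71 ± 0.31, adjusted p = 0.0073), so the step in H2A.Z transcript was not the same in both backgrounds. Of the 55 peroxidases, 10 were called with a lower value, against 1.85% of all genes, and 0 with a higher one, against 0.637%, by limma. The 10 were PRX52, PRX59, PRX49, PRX15, PRX10, PRX28, PRX53, PRX32 (AT3G32980), PRX30 (AT3G21770) and PRX47. Without PRX59, PRX10 and PRX28, which passed the filter through h2a.z, 7 of 49 were called. PRX52 had the largest value (-4.03 ± 0.51, adjusted p = 0.00057), with a higher level in h3.3kd than in Col and a lower one in the combined genotype than in h2a.z. PRX49 (-3.35 ± 0.53, adjusted p = 0.0031) and PRX15 (-3.13 ± 0.53, adjusted p = 0.005) had the same 2 directions. PRX30 fell in both backgrounds, from 51.3, 50.2 and 67.4 TPM in Col to 20.8, 25.9 and 30 TPM in h3.3kd, and from 107, 111 and 100.4 TPM in h2a.z to 23.7, 23.1 and 24.3 TPM in the combined genotype, and the interaction was -1.01 ± 0.21 (adjusted p = 0.021). PRX32, a close relative of PRX33 and PRX34, had 84.8, 99.1 and 126 TPM in Col, 64.6, 116 and 119 TPM in h3.3kd, 127, 148 and 127 TPM in h2a.z and 51.8, 55.6 and 49.8 TPM in the combined genotype, with an interaction of -1.26 ± 0.29 (adjusted p = 0.033).

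PRX53 (AT5G06720), which is induced by wounding, had 1.46, 1.9 and 1.59 TPM in Col, 0.314, 0 and 0.397 TPM in h3.3kd, 6.56, 8.28 and 8.6 TPM in h2a.z and 0.45, 0.741 and 0.583 TPM in the combined genotype. PRX28 (AT3G03670) was listed at 0, 0 and 0.0638 TPM in Col, 0, 0 and 0 TPM in h3.3kd, 1.77, 2.2 and 2.64 TPM in h2a.z and 0, 0.429 and 0 TPM in the combined genotype, so the h2a.z libraries alone held more than a trace of it. With a pseudocount of 0.1 in place of 1 the interaction was called for 4 members. The calls that ended there were those of PRX59 (-3.45, adjusted p = 0.19), PRX10 (-2.49, 0.23), PRX28 (-3.47, 0.21), PRX53 (-0.86, 0.73), PRX32 (-1.27, 0.052) and PRX47 (-0.86, 0.05), all still below 0. The call of PRX47 also ended with median-ratio rescaling (0.067) and quantile normalization (0.063), and that of PRX28 with quantile normalization (0.095). Leaving out 1 library gave 5 called members without Col replicate 2, h2a.z replicate 2 or combined replicate 1 or 3, 6 without Col replicate 1, h3.3kd replicate 3 or h2a.z replicate 3, and 15 without h3.3kd replicate 1. PRX52, PRX59, PRX49, PRX15 and PRX10 kept their calls when any 1 library was left out. PRX59, PRX10, PRX28 and PRX53 had means of only 0.692, 1.09, 0.0213 and 1.65 TPM in Col, so they could fall little from Col to h3.3kd. Their negative values are partly set by this floor, and leaving out a library does not test that.

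**Figure D4:**
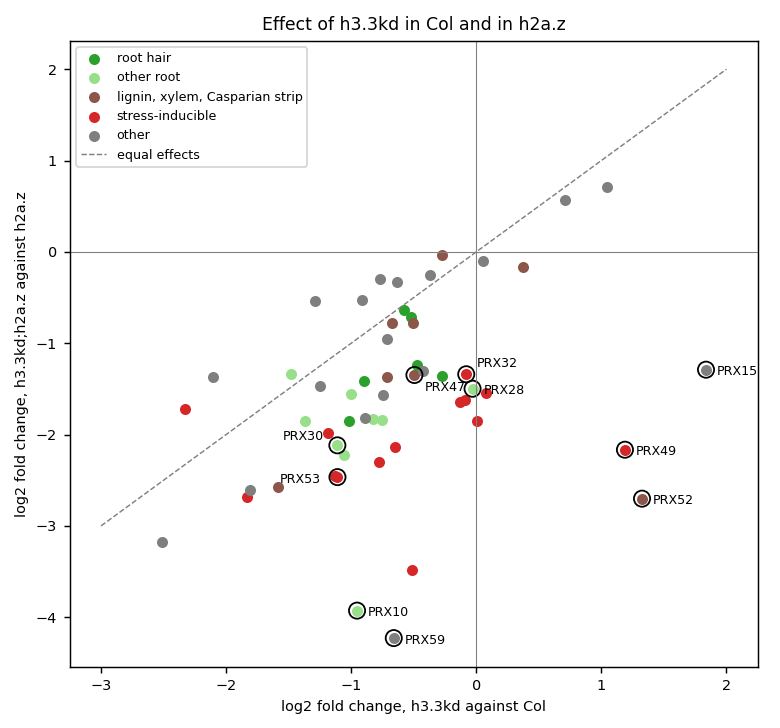
Difference in log2(TPM + 1) of h3.3kd against Col (horizontal) and of the combined genotype against h2a.z (vertical) for each tested peroxidase, coloured by role group, with the line of equal effects and rings around the 10 members called for the interaction. Most points lie below the line, and PRX52, PRX49 and PRX15 lie to the right of 0 and below 0.

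Other genes of peroxide and wall chemistry were counted from lists drawn up with earlier results of these data known, so their direction is not independent evidence. Of all genes, 10.5% were called higher and 4.56% lower in h2a.z, 5.41% and 11.9% in h3.3kd, and 6.17% and 12.6% in the combined genotype. Of 8 NADPH oxidases tested, which make the superoxide that yields hydrogen peroxide, 2 were called higher in h2a.z and 0 lower, 0 were called in h3.3kd (limma), and 1 rose and 1 fell in the combined genotype, which is near the shares of all genes there. RBOHD, the oxidase of the immune oxidative burst, had 12.4, 15 and 13.2 TPM in Col, 8.79, 15 and 11.8 TPM in h3.3kd, 37.8, 36.4 and 43.9 TPM in h2a.z and 20.1, 28.6 and 20.3 TPM in the combined genotype. It rose in h2a.z (1.47 ± 0.19, adjusted p = 0.00012). RBOHC, the oxidase of root hair growth, fell in the combined genotype (-1.08 ± 0.26, adjusted p = 0.0091).

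Of 20 genes of monolignol synthesis and laccases, which make and couple the building blocks of lignin, 12 were called higher in h2a.z, 2 in h3.3kd and 7 in the combined genotype, and 0 lower in any of them. COMT1, a methyltransferase of monolignol synthesis, had 107, 134 and 126 TPM in Col and 194, 222 and 228 TPM in h2a.z, where it rose (0.81 ± 0.13, adjusted p = 0.00068). The laccase gene LAC17 rose in the combined genotype, with 24, 32 and 24.6 TPM in Col and 57.1, 58.4 and 48.9 TPM there (1.01 ± 0.18, adjusted p = 0.0013). Of 7 tested Casparian strip genes, 5 were called lower in the combined genotype, 1 in h3.3kd and 1 in h2a.z. CASP1, a scaffold protein of the strip, had 39.1, 29.5 and 44.6 TPM in Col and 15.2, 14.4 and 16.7 TPM in the combined genotype (-1.22 ± 0.30, adjusted p = 0.01).

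The members left out of the tests were PRX1, PRX2, PRX14, PRX36 and PRX68, whose highest values in any library were 0.302, 0.127, 0.173, 0.875 and 0.555 TPM. The values of PRX1 and PRX2 are uncertain, because their coding sequences are identical and the counting of shared reads is not known. PRX36 is known for loosening the wall of seed coat cells. Of the 13 family loci outside the 60, 11 were in the table and 6 were tested. PRX18 was the 1 of these called higher in all 3 mutant genotypes, as were 0.858% of all genes (limma, adjusted p up to 0.13 in h3.3kd and 0.058 in h2a.z under the alternatives). It had 1.43, 0.701 and 0.814 TPM in Col, 1.87, 2.55 and 2.58 TPM in h3.3kd, 3.04, 2.12 and 2.55 TPM in h2a.z and 3.92, 4.03 and 4.63 TPM in the combined genotype. Of the 6, 3 were called lower in the combined genotype (12.6% of all genes), or 2 with median-ratio rescaling.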

How the data were processed

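Total RNA of 12 seedling samples was sequenced, and the authors deposited 1 table of TPM for 23387 genes, each column summing to 1000000. Per the submitters' processing notes, fastp 0.20.1, HISAT2 2.1.10, HTSeq 0.11.2 and DESeq2 1.26.0 were used with build TAIR10, and the gene identifiers name Araport11. The sources used here do not give gene lengths, counting mode or filters. Counts were not analysed here, so no test made for counts was run. Every column belonged to a sample, and no pair held identical values.

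From the deposited TPM, log2(TPM + 1) was taken for the 19937 genes with 1 TPM or more in at least 3 libraries. One limma 3.58.1 model (lmFit, eBayes with intensity trend, R 4.3.3) held the 4 genotype means without a replicate block, and contrasts were adjusted by Benjamini-Hochberg over all genes tested. The method was tested on simulated data. Sequences and positions came from the RefSeq assembly TAIR10.1. Tables and plots used Python 3.11.15, numpy 2.4.6, pandas 2.3.3 and matplotlib 3.10.9.

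The members, the role groups and the other lists were chosen with earlier results of these data known. Named genes were PRX52, in each comparison up to 6 called members each way with the largest difference and a mean of at least 5 TPM in 1 of the genotypes compared, the 6 most abundant members, every member called for the interaction, and up to 3 called genes of each other list with the smallest adjusted p. PRX5, PRX7, PRX8, PRX9, PRX14, PRX38, PRX44, PRX58, PRX63, PRX64, PRX72, PRX73 and the untested members were named besides, chosen after their values were seen.

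Replicate numbers come from the sample titles. Same-numbered libraries deviated together from their genotype means in h3.3kd and Col (r = 0.314, 0.221 and 0.115 across genes for numbers 1 to 3), and not in every pair of any other comparison. With the replicate number as a block in a fit of these 2 genotypes alone, a choice made after seeing the data, 5 peroxidases were called higher and 20 lower in h3.3kd against Col. Alternatives were a pseudocount of 0.1, no filter, median-ratio rescaling, quantile normalization, the replicate block, fits of only the genotypes compared, and leaving out each library.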

Additional observations from a re-analysis of the deposited data

Results flagged for a closer look

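Of the 55 tested peroxidases, 10 were called with a lower interaction term of the limma model (1.85% of all genes) and 0 with a higher one (0.637%), adjusted over all genes tested. The term compares the difference of the combined genotype from h2a.z with that of h3.3kd from Col. Each value is the first difference minus the second, on the log2(TPM + 1) scale. It was -4.03 ± 0.51 for PRX52, -3.57 ± 0.43 for PRX59, -3.35 ± 0.53 for PRX49, -3.13 ± 0.53 for PRX15 and -2.97 ± 0.55 for PRX10 (value ± SE). It was -1.47 ± 0.32 for PRX28, -1.36 ± 0.31 for PRX53, -1.26 ± 0.29 for PRX32, -1.01 ± 0.21 for PRX30 and -0.85 ± 0.20 for PRX47. PRX52, PRX49 and PRX15 were higher in h3.3kd than in Col and lower in the combined genotype than in h2a.z. PRX59, PRX10 and PRX28 passed the filter on low values through h2a.z, the genotype in which they were high, and without them 7 were called. These 3 and PRX53 were also low in Col, so they could fall little from Col to h3.3kd. Their negative values are partly set by this floor. The calls of PRX52, PRX49 and PRX15 were kept under every alternative. With a pseudocount of 0.1, 4 were called, and the calls of PRX59, PRX10, PRX28, PRX53, PRX32 and PRX47 ended. That of PRX30 ended without certain single libraries, such as Col replicate 2 (adjusted p = 0.06 by limma).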

How the results depend on the processing

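Of 84 repeats of the 14 counts of called peroxidases, other than those leaving out a library, 78 came within 1.5 times the count given. With only the genotypes compared in the fit, h3.3kd against Col had 3 higher and 15 lower, h2a.z against Col 1 lower, and the combined genotype against h3.3kd 2 higher and 0 lower; this fit cannot be made for the interaction. With a pseudocount of 0.1, 4 were lower for the interaction. The cause was not tested, and the shares of all genes called under these alternatives are not given here. Leaving out 1 library gave, higher and lower, 3 to 5 and 17 to 27 for h3.3kd against Col, 23 to 27 and 1 to 2 for h2a.z against Col, 3 to 8 and 19 to 25 for the combined genotype against Col, 1 to 2 and 32 to 44 for it against h2a.z, 4 to 7 and 1 to 9 for it against h3.3kd, 31 to 43 and 2 for h2a.z against h3.3kd, and 0 and 5 to 15 for the interaction. The 2 removals that lowered h3.3kd against Col most were h3.3kd replicate 1 (17 lower) and Col replicate 2 (18 lower).

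With the replicate block in the model of all 12 libraries, 5 were higher and 25 lower in h3.3kd against Col. In the other comparisons the samples share only a number, and over all named calls the block ended 1 (PRX23 in the combined genotype against Col, 0.055) and added 1 (PRX52 in the same comparison, 0.039). Of 77 named calls, 54 were kept under every alternative, 23 were lost under at least 1 and 0 reversed. Levels of low genes rest on few reads of unknown number.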
